A study of Homo sapiens with 8 samples.

Results

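Human chromosome 19 carries the densest collection of C2H2 zinc finger genes in the genome, and the genes described here are its numbered ZNF genes. They were taken as every protein-coding gene on chromosome 19 whose symbol is ZNF followed by digits alone, in order of start. The rule found 241 genes among 61533 gene identifiers in the count tables. The rule reads the symbol, the gene type and the chromosome, and no level. Of the 241 members, 164 passed the filter on low counts and were tested, 50 had 0 counts in all 8 libraries, and 27 had counts too few to test.

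A C2H2 finger is a short fold in which a pair of cysteines and a pair of histidines hold a zinc ion, and rows of such fingers read DNA sequence. Most of the family on this chromosome also carry a KRAB box, which binds the corepressor TRIM28. TRIM28 in turn brings the histone methyltransferase SETDB1 and heterochromatin protein 1, and many of these proteins hold transposable elements in a repressed state. The genes arose by tandem duplication, so neighbours often resemble each other. The wider pattern for a KRAB start matched 194 of the 241 coding sequences, and the members encoded a median of 12 fingers, with a range of 0 to 36.

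RNA was measured in 2 squamous carcinoma lines. CAL27 is labelled as squamous cell carcinoma of the tongue and A431 as epidermoid carcinoma. The 4 groups were CAL27 with NEDD8i, CAL27 with DMSO, A431 with NEDD8i and A431 with DMSO, each of 2 libraries taken after 16 h. NEDD8i stands in the labels for an inhibitor of NEDD8, a ubiquitin-like protein whose attachment to cullins switches on cullin ubiquitin ligases. The sources used here give neither its identity nor its dose, and DMSO is the solvent control. Nothing in the labels says that a group's libraries were separate cultures, so the p-values reflect a spread between libraries that may be technical. The series concerns ubiquitin-like proteins, NEDD8 among them, in epithelia, and the members are described here through the treatment in each line and between the lines. Libraries were made with a 3' end kit (QuantSeq FWD) and held 49037868 to 62509817 counts, of which members took 0.106% to 0.135%.

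Levels are given as CPM, counts scaled to the TMM-adjusted library size, and every fold change is on the log2 scale with its standard error (SE). A gene is called where the adjusted p of edgeR's quasi-likelihood test, corrected over all 18738 tested genes, was under 0.05. Among all tested genes, UBE2M, the conjugating enzyme for NEDD8, had 184.1 and 171.0 CPM in CAL27 with NEDD8i, against 103.5 and 111.8 CPM with DMSO, and 239.9 and 239.2 CPM in A431 with NEDD8i, against 143.9 and 132.5 CPM with DMSO. UBE2M was called higher in both lines, NEDD8 was called higher in CAL27 alone, and NAE1, which with UBA3 activates NEDD8, was called higher in A431 alone. UBA3 was called in neither. The 5 epithelial markers summed to 10400 and 10900 CPM in CAL27 with NEDD8i against 11300 CPM in both CAL27 libraries with DMSO, and to 8580 and 8310 CPM in A431 with NEDD8i against 7730 and 7680 CPM with DMSO. With NEDD8i EPCAM, CDH1 and KRT14 were called higher and KRT5 lower in both lines, and TP63 was called in CAL27 (log2 fold -2.18) and not called in A431 (-0.10). In the 8 libraries 4 fibroblast markers summed to 6.45 to 38.6 CPM, 3 endothelial markers to 5.23 to 21.9 CPM and 3 leukocyte markers to 0.875 to 17.8 CPM. Of these, COL1A2 was at 0 in all A431 libraries and PTPRC at 0 in all 8. The fibroblast sum was 6.45 and 10.6 CPM in CAL27 with NEDD8i against 20.2 and 23.7 CPM with DMSO, and 18.2 and 17.6 CPM in A431 with NEDD8i against 38.6 and 35.3 CPM with DMSO. The leukocyte sum, nearly all of it CD14, was 1.77 and 1.74 CPM in CAL27 with NEDD8i against 16.3 and 17.8 CPM with DMSO, and 0.875 and 1.75 CPM in A431 with NEDD8i against 6.64 and 6.31 CPM with DMSO. The endothelial sum was 10.7 and 10.3 CPM in CAL27 with NEDD8i against 6.63 and 5.95 CPM with DMSO, and 5.56 and 5.23 CPM in A431 with NEDD8i against 21.9 and 19.6 CPM with DMSO. The mitochondrial share of counts was 1.45% and 1.02% in CAL27 with NEDD8i against 1.77% and 1.56% with DMSO, and 1.96% and 2.27% in A431 with NEDD8i against 2.69% and 3.15% with DMSO. The part of these in the results below was not tested, and in bulk RNA fewer cells of a kind and less RNA per cell cannot be told apart.

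What a member encodes can be read in the coding sequence of a finger. The first finger of ZNF114, the member with the largest called rise in each line, is shown from its GENCODE transcript, coding bases 916 to 999, with the codons of the 2 cysteines and 2 histidines in capitals. The sequence ends in the stretch that links one finger to the next.
ZNF114 finger: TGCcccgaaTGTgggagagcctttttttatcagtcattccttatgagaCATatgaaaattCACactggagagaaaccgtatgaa

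The promoters of members hold sequence features in common that the rule did not use. RefSeq start sites (GRCh38.p14) matched 210 of the 241 members, and a window of 250 bases before to 50 after the start was searched on both strands. The ETS letters CCGGAAG, or CTTCCGG on the other strand, bound by a broad family of activators, were found in 93 of the 210 member promoters (44.3%), against 10.7% of all 27305 promoters in the table. The E2F letters GGCGGGA were in 30% of member promoters, against 15.5% of all, and the YY1 letters ATGGCG in 18.1%, against 11%. The AP-1 letters TGACTCA were in 2.38%, against 4.92%, and the E-box CACGTG in 3.81%, against 7.43%. NRF1 letters GCGCATG and CREB letters TGACGTC had shares of 4.29% and 3.81% in members, against 4.67% and 3.63% of all promoters. The median promoter held 20 CpG in members, against 14 in all, at a median GC content of 60%, against 58.3%. All members are protein-coding, while the 27305 promoters were not limited by gene type, so the sets are not alike. Member promoters come from duplicated genes and are not independent of each other, so these shares are descriptions with no test.

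Promoters of 5 members on which the results below turn are printed on the coding strand, with the ETS letters in capitals. ZNF260, ZNF567 and ZNF160 had 0 counts in CAL27, ZNF146 is a neighbour of ZNF260 that was high in both lines, and ZNF580 had the largest mean fall among members lower in both lines. ZNF260 lies on the minus strand at chr19:36528222-36528521, ZNF567 on the plus strand at chr19:36666684-36666983, ZNF160 on the minus strand at chr19:53103373-53103672, ZNF146 on the plus strand at chr19:36214856-36215155 and ZNF580 on the plus strand at chr19:55640752-55641051. The RefSeq start of ZNF567 lies upstream of the first exon counted for that gene.
ZNF260 promoter: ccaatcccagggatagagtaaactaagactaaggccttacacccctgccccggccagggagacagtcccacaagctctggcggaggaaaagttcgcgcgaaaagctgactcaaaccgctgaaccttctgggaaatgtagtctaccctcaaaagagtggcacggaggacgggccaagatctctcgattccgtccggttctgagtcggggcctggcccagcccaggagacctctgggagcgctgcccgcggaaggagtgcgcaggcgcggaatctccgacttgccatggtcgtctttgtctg
ZNF567 promoter: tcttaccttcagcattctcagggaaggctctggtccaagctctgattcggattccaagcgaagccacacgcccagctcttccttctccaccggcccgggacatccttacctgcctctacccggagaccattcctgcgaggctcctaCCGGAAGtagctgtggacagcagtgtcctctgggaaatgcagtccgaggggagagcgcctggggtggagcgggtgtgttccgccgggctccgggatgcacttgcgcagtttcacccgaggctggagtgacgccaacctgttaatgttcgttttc
ZNF160 promoter: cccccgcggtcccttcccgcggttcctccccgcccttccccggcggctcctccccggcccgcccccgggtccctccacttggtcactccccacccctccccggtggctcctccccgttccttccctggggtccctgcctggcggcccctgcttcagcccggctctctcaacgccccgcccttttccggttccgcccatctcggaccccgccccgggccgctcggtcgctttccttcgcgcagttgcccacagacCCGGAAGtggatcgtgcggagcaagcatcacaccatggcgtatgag
ZNF146 promoter: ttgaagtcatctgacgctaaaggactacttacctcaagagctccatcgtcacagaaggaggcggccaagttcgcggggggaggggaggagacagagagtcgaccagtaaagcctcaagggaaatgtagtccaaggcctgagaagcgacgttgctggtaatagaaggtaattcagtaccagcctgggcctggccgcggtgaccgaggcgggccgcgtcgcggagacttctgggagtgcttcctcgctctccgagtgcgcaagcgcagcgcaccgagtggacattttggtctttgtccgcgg
ZNF580 promoter: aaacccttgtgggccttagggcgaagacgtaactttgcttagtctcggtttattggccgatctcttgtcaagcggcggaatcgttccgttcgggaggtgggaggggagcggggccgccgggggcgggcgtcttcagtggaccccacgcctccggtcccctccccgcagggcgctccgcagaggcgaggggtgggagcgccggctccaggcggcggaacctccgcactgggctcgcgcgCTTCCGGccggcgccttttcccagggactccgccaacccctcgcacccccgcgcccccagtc

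The windows of ZNF567, ZNF160 and ZNF580 each held 1 match, and those of ZNF260 and ZNF146 held none. Members at 0 in CAL27 were thus found both with and without these letters. ZNF567 and its divergent neighbour ZNF461 have overlapping promoter windows that share this 1 match, read on opposite strands, and both were at 0 in CAL27.

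Members were expressed at low to moderate levels in both lines. The mean CPM over the 8 libraries had a median of 4.19 over the 164 tested members, with a range of 0.0947 to 75.7 CPM, while all tested genes had a median of 8.753 CPM. Above 10 CPM stood 38 members, and 29 stood below 1 CPM. These CPM are from 3' ends and were not divided by transcript length. Reads that matched several places were not counted and strand was not used, so levels are not compared between members. The 5 members with the most CPM in these 3' libraries, as counted, were ZNF146, ZNF787, ZNF317, ZNF574 and ZNF114. Summed over members, the level was 1359 and 1309 CPM in CAL27 with NEDD8i, against 1159 and 1202 CPM with DMSO, and 1171 and 1208 CPM in A431 with NEDD8i, against 1061 and 1071 CPM with DMSO. The NEDD8i libraries lay above the DMSO libraries in each line, with no overlap. Such a sum weighs most on members with many CPM, and of the 5 named above ZNF114, ZNF317 and ZNF787 were called higher in both lines. The median log2 fold over members with counts was 0.03 in CAL27 and 0.06 in A431. With library sizes taken as plain column totals it was -0.0527 and -0.045, so the sum does not show a rise of most members.

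Between the lines, the members differed widely under DMSO. Of 164 tested, 52 were called higher in CAL27 than in A431 (31.7%) and 49 lower (29.9%), against 29.9% of all tested genes called higher and 29% called lower (58.9% in either direction). The shares of members called were thus near those of all tested genes. They were below those of tested protein-coding genes, of which 34.3% were called higher and 36.1% lower. The median log2 fold was -0.02 over members and 0.05 over all genes. Of the called members, 64.4% differed at least 2-fold, against 46.9% of all called genes. Leaving out 1 library at a time gave 43 to 52 members called higher and 40 to 49 called lower.

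The direction was mostly shared on the short arm and was mixed on the long arm. The arms were parted at the longest stretch without a counted gene. On the short arm 30 of 41 tested members were called higher in CAL27 and 0 lower, with a median log2 fold of 1.12. Other protein-coding genes of the short arm ran the same way, with 262 of 370 called higher and 36 lower and a median of 0.76. On the long arm 22 of 123 tested members were called higher and 49 lower, with a median of -0.25. Other protein-coding genes there had 108 of 389 higher and 161 lower. The long arm clusters were not alike. The cluster from 57.19 to 58.48 Mb had 12 higher and 7 lower of 38 tested members, with a median of 0.16. The cluster from 51.57 to 53.58 Mb had 1 higher and 17 lower of 29. The summed short arm level was 326.2 and 330.1 CPM in CAL27 with DMSO, against 159.5 and 167.8 CPM in A431 with DMSO. The summed long arm level was 832.7 and 872.2 CPM in CAL27 with DMSO, against 901.7 and 903.4 CPM in A431 with DMSO, so the groups did not overlap on either arm.

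**Figure D1:**
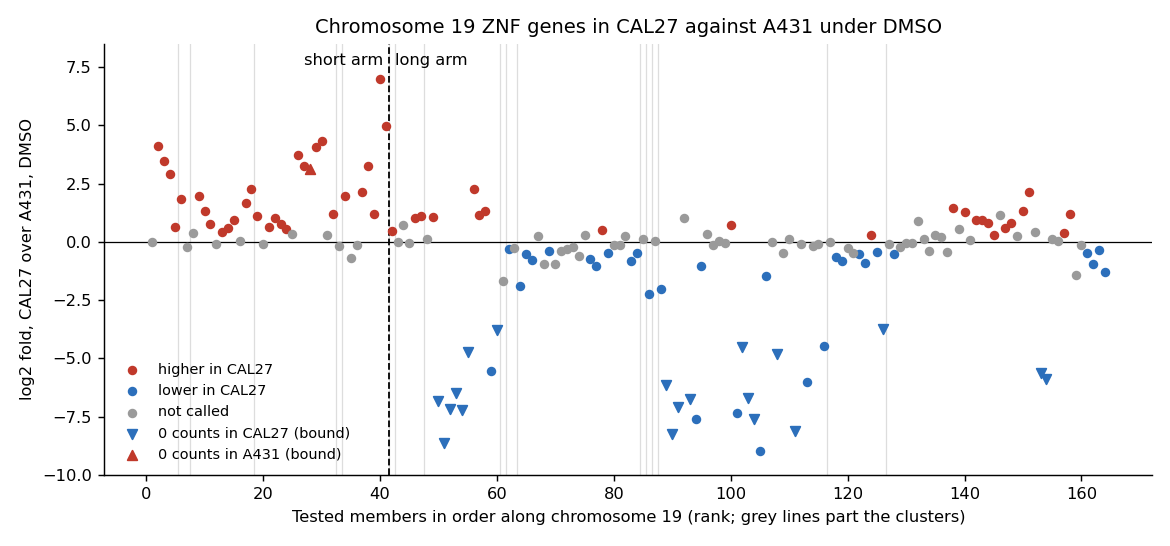
Log2 fold change of CAL27 over A431 under DMSO (vertical axis) for the 164 tested members in order along chromosome 19 (horizontal axis, rank), with grey lines between clusters parted by over 500 kb and a dashed line between the arms. Red points were called higher in CAL27, blue points lower and grey points were not called. Triangles are bounds for members with 0 counts in 1 line. Red points fill the short arm, where 30 of 41 members were higher, and 16 of the 19 members at 0 in CAL27 stand in 2 clusters of the long arm.

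On the short arm the highest members in CAL27 against A431 were low in A431 with DMSO and had at most 5.24 CPM in CAL27 with DMSO. ZNF708 had 2.45 and 2.85 CPM in CAL27 with DMSO, against 0.0348 and 0 CPM in A431 with DMSO (log2 fold 7.01, SE 0.78, edgeR adjusted p = 7.47e-07). ZNF675, an inhibitor of TRAF6 signalling, had 4.26 and 5.24 CPM in CAL27, against 0.0695 and 0.233 CPM in A431 (4.99, SE 0.45, edgeR adjusted p = 3.92e-08). ZNF555 had 3.34 and 4.04 CPM in CAL27, against 0.226 and 0.194 CPM in A431 (4.12, SE 0.40, edgeR adjusted p = 9.78e-08). For all of them the CAL27 libraries lay far above the A431 libraries. ZNF443 had 0.853 and 1.14 CPM in CAL27, against 0 and 0.0970 CPM in A431, and ZNF799 had 0.723 and 0.575 CPM, against 0.0695 and 0 CPM. ZNF799 shares 19.4% of its exonic bases with other genes. ZNF442 had 0 counts in A431 with DMSO, where the 3 counts that a group at 0 allows put it at least 8.79-fold higher in CAL27 (at least 4.39-fold if those are 3 pairs of mates, or 6 counts), and its call was lost on leaving out A431 DMSO replicate 1, A431 DMSO replicate 2 or CAL27 DMSO replicate 2 (edgeR adjusted p up to 0.121). ZNF317, a KRAB member with a high level, had 49.0 and 49.6 CPM in CAL27, against 18.4 and 20.5 CPM in A431 (1.34, SE 0.09, edgeR adjusted p = 7.19e-10).

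On the long arm, 19 members had 0 counts in CAL27 with DMSO and at least 10 counts in each A431 library with DMSO. No member showed the reverse at this cut. ZNF442 had 0 counts in A431 with DMSO, but 8 and 21 counts in CAL27 with DMSO. With up to 3 counts allowed over the low group in place of 0, 24 members were low in CAL27 and 1 in A431. Over all genes, 23323 and 23822 had a count in the CAL27 libraries with DMSO, against 20838 and 20233 in A431 with DMSO. Genes at 0 in 1 line by the same cut were not counted over all genes. All 19 stayed at 0 in the CAL27 libraries with NEDD8i too, so each was at 0 in all 4 CAL27 libraries. A group at 0 allows up to 3 counts, which is 0.025 CPM for CAL27 with DMSO, and this limit covers counting error alone. Mates of a pair were counted on their own, so 3 unseen pairs would be 6 counts, and each bound below would then be 0.5 times the value given first. This floor of 6 counts was chosen after seeing the data.

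Of the 19 members, 16 lay in 2 clusters, among members with counts. In the cluster from 36.18 to 37.82 Mb, 7 of 13 tested members were at 0, namely ZNF566, ZNF260, ZNF529, ZNF461, ZNF567, ZNF850 and ZNF573. In the cluster from 51.57 to 53.58 Mb, 9 of 29 tested members were at 0, namely ZNF577, ZNF649, ZNF613, ZNF615, ZNF701, ZNF83, ZNF611, ZNF320 and ZNF160. ZNF71, ZNF256 and ZNF606 lay further towards the long arm end. Of the 19, 16 matched the wider KRAB pattern (84.2%), and the median number of fingers was 13. RefSeq promoters matched 18 of them, with a median of 25 CpG and the ETS letters in 7.

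ZNF260, which encodes 13 fingers and matched no KRAB pattern, spans chr19:36510687-36528271 on the minus strand. It had 0 counts in every CAL27 library, against 524 and 569 counts (9.108 and 11.04 CPM) in A431 with DMSO, so it was at least 401-fold lower in CAL27 (200-fold with the floor of 6 counts). ZNF649, reported as a repressor of serum response and AP-1 reporters, had 0 counts in CAL27, against 402 and 423 counts in A431 with DMSO, at least 303-fold lower (151-fold with 6 counts). ZNF160, a KRAB member with 20 fingers, had 0 counts, against 376 and 385 counts, at least 279-fold lower (140-fold with 6 counts). None of these groups overlapped. ZNF611 was at least 197-fold lower, ZNF567 at least 150-fold and ZNF529 at least 144-fold. The bounds of the other 13 ran from 13.2-fold for ZNF71 to 134-fold for ZNF613, or 6.60-fold to 67.1-fold with 6 counts. ZNF614 came close to this pattern, with 0 and 0.0908 CPM in CAL27 with DMSO, against 11.5 and 8.85 CPM in A431 with DMSO.

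Neighbours inside the same clusters were read in both lines. ZNF146, a protein of fingers with no KRAB box, had 98.5 and 99.1 CPM in CAL27 with DMSO, against 43.7 and 49.8 CPM in A431 (log2 fold 1.08, SE 0.07, edgeR adjusted p = 2.5e-10). Further along the same cluster, ZNF383, ZNF875 and ZNF527 were called higher in CAL27, by 2.27, 1.15 and 1.33 on the log2 scale. In the cluster near 52 Mb, ZNF845 had 14.6 and 15.2 CPM in CAL27, against 15.4 and 16.3 CPM in A431, and ZNF766 had 10.8 and 13.4 CPM, against 12.6 and 12.6 CPM. ZNF845 and ZNF766 were not called (log2 fold -0.09, SE 0.11, and -0.06, SE 0.14). These neighbours were picked after their values were seen, to show that a member at 0 can stand beside one that is not.

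**Figure D2:**
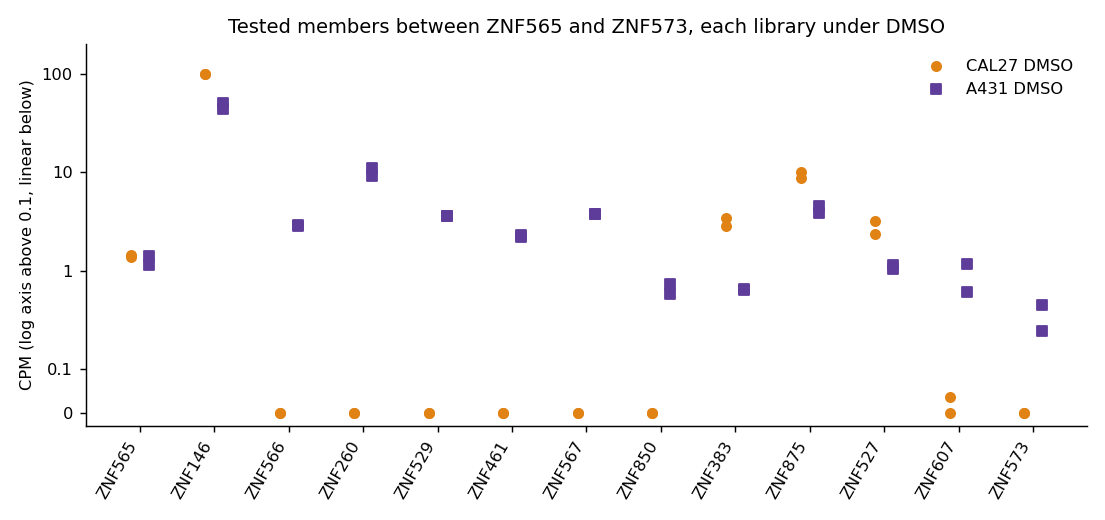
CPM (vertical axis, logarithmic above 0.1 and linear below) of the 13 tested members from ZNF565 to ZNF573, in order along the chromosome, in each CAL27 library (orange circles) and A431 library (purple squares) under DMSO. ZNF566 to ZNF850 and ZNF573 sit at 0 in CAL27, while ZNF146, ZNF383, ZNF875 and ZNF527 sit above their A431 values.

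Among genes of the family that the symbol rule leaves out, the pattern was seen in ZFP14 and ZFP30. ZFP14 and ZFP30 had 0 counts in all CAL27 libraries, against 42 and 23 counts for ZFP14 and 154 and 103 counts for ZFP30 in A431 with DMSO. Of these 21 other zinc finger genes of the chromosome 9 were tested, and 3 were called higher and 3 lower in CAL27 than in A431 under DMSO. With NEDD8i, 0 were higher and 1 lower in CAL27, and 0 higher and 2 lower in A431. ZNF585B, named after its values were seen, was higher between the lines, with 1.35 and 1.59 CPM in CAL27, against 0.0869 and 0.291 CPM in A431.

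In CAL27, NEDD8i raised 27 of the 164 tested members (16.5%) and lowered 19 (11.6%), against 23.2% and 26.4% of all tested genes. In A431 it raised 24 (14.6%) and lowered 19 (11.6%), against 22.5% and 21.1% of all tested genes (43.6% in either direction, and 49.6% in CAL27). A member at 0 in a line could not be called there. Over the members with counts in the line, the shares were 18.6% higher and 13.1% lower of 145 in CAL27, against 23.4% and 26.6% of all tested genes with counts, and 14.7% and 11.7% of 163 in A431, against 23.2% and 21.7%. Each of these shares was below that of all tested genes. The gap was not tested, and the median CPM of members was also below that of all tested genes. The 209 tested numbered ZNF genes of other chromosomes had 25.4% higher and 23.9% lower in CAL27, and 21.1% higher and 18.2% lower in A431. Tested protein-coding genes of all chromosomes had 28.8% higher and 32.4% lower in CAL27, and 28.9% higher and 25.7% lower in A431. The median log2 fold was 0.03 over members with counts in CAL27, against -0.05 over all genes, and 0.06 in A431, against -0.04. With library sizes taken as plain column totals the split was 21 higher and 24 lower in CAL27 and 17 higher and 22 lower in A431, and that scaling moved the median of all genes in A431 by -0.10. Without CAL27 DMSO replicate 1 the lower members in CAL27 numbered 12. In A431 the higher members numbered 15 without NEDD8i replicate 1 and 15 without NEDD8i replicate 2, and the lower members 10 without NEDD8i replicate 1. Where 1 library was left out, the lone library of its group was assumed to vary like the other groups.

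**Figure D3:**
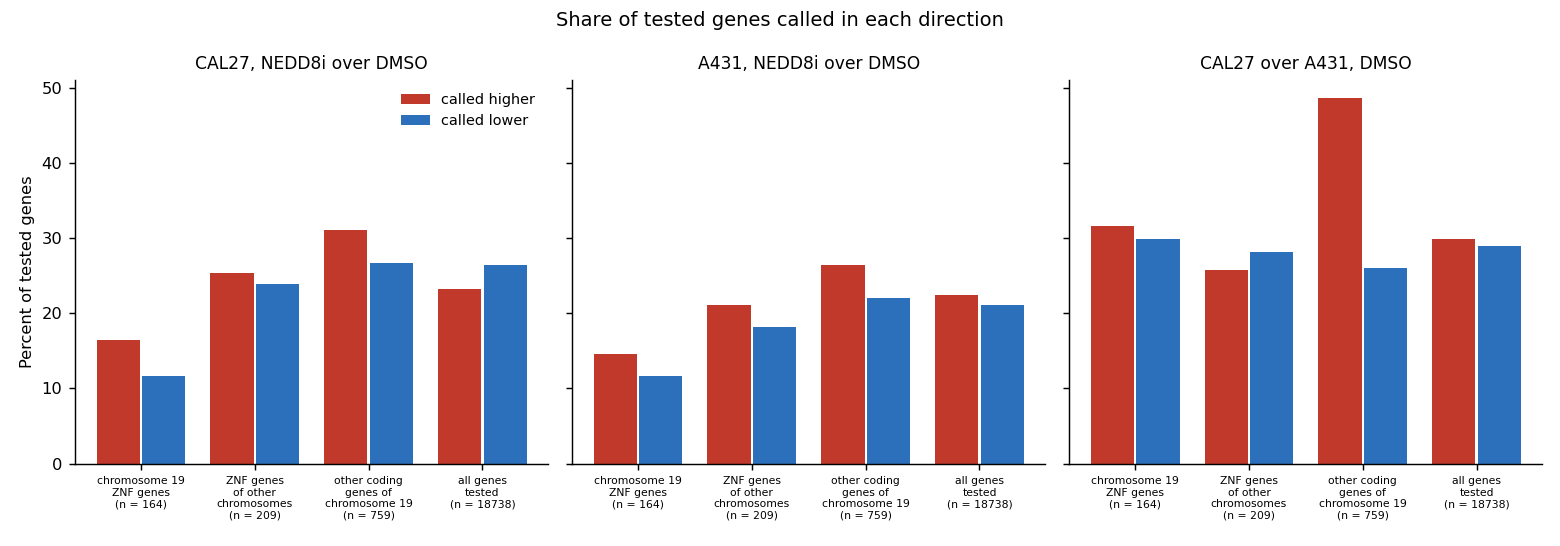
Percent of tested genes called higher (red bars) and lower (blue bars) for chromosome 19 ZNF genes, ZNF genes of other chromosomes, other protein-coding genes of chromosome 19 and all tested genes, in CAL27 with NEDD8i over DMSO, in A431 with NEDD8i over DMSO, and in CAL27 over A431 under DMSO. In both treatment panels the chromosome 19 ZNF bars are the lowest, at 16.5% and 11.6% in CAL27 and 14.6% and 11.6% in A431.

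Some members were called in both lines. Of 46 members called in CAL27 and 43 in A431, 9 were higher in both lines, 8 lower in both and 2 were called in opposite directions. The 17 with the same direction made up 37.0% of those called in CAL27 and 39.5% of those called in A431, against 52.7% and 59.9% over all tested genes, and 94 members were called in neither line. Each line had its own DMSO libraries. Over the 139 members with counts in all 4 groups, the log2 folds of the lines had a Pearson r of 0.44 and a Spearman rho of 0.34, against 0.455 and 0.457 over the 16933 tested genes with such counts. That is a description across genes, which share promoter and coding sequence by descent and are not independent.

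**Figure D4:**
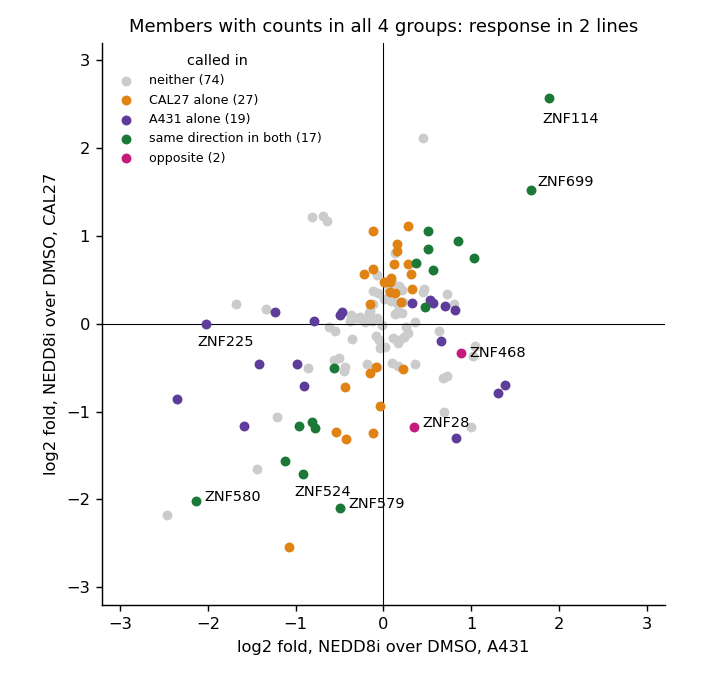
Log2 fold change with NEDD8i over DMSO in A431 (horizontal axis) and in CAL27 (vertical axis) for the 139 members with counts in all 4 groups, coloured by the line in which a member was called. ZNF114 and ZNF699 stand at the upper right, ZNF580 at the lower left, and ZNF28 and ZNF468 were higher in A431 and lower in CAL27.

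ZNF114 had the largest rise in both lines. It encodes a KRAB protein with 3 fingers, few for this family, and its gene (ENSG00000178150.10) spans chr19:48270081-48287608 on the plus strand, apart from other members. It had 26.3 and 27.2 CPM in CAL27 with NEDD8i, against 3.93 and 5.04 CPM with DMSO (log2 fold 2.56, SE 0.11, edgeR adjusted p = 2.5e-12). In A431 it had 80.6 and 76.8 CPM with NEDD8i, against 21.1 and 21.5 CPM with DMSO (1.89, SE 0.09, edgeR adjusted p = 3.93e-11). Every NEDD8i library lay far above every DMSO library of its line. Its response was larger in CAL27 by 0.68 (SE 0.14, edgeR adjusted p = 0.00119), and under DMSO it was lower in CAL27 than in A431 by 2.24 on the log2 scale.

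ZNF699, a KRAB member with 14 fingers, had 11.3 and 10.5 CPM in CAL27 with NEDD8i, against 4.65 and 2.95 CPM with DMSO (1.52, SE 0.21, edgeR adjusted p = 7.17e-06). In A431 it had 6.783 and 7.502 CPM with NEDD8i, against 2.31 and 2.15 CPM with DMSO (1.68, SE 0.22, edgeR adjusted p = 6.08e-06). No library of the 2 groups overlapped in either line. ZNF699 lies in a cluster from 8.51 to 9.77 Mb in which 5 of 11 tested members were higher in CAL27 and 0 lower, and 6 were higher in A431 and 0 lower, beside 23.2% and 22.5% of all tested genes called higher. The cluster is given because ZNF699 lies in it. ZNF426 and ZNF317 of that cluster were higher in both lines. ZNF426 had 29.4 and 31.1 CPM in CAL27 with NEDD8i, against 14.4 and 14.7 CPM with DMSO, and 14.4 and 12.8 CPM in A431 with NEDD8i, against 7.93 and 11.2 CPM with DMSO. ZNF317 had 82.2 and 77.0 CPM in CAL27 with NEDD8i, against 49.0 and 49.6 CPM with DMSO, and 23.0 and 27.4 CPM in A431 with NEDD8i, against 18.4 and 20.5 CPM with DMSO. The A431 call of ZNF426 was lost without A431 DMSO replicate 1 or without A431 NEDD8i replicate 1 (edgeR adjusted p up to 0.128), and that of ZNF317 without A431 NEDD8i replicate 2 (edgeR adjusted p = 0.0768).

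The other members higher in both lines were KRAB-type genes and ZNF787. ZNF430 rose by 0.75 in CAL27 and 1.03 in A431 on the log2 scale, and its neighbour ZNF431 by 0.85 and 0.51. ZNF530 rose by 0.61 in CAL27 and 0.57 in A431, and ZNF460, which shares 25.2% of its exonic bases with other genes, by 0.94 and 0.85. ZNF787, which matched no KRAB pattern, had 68.6 and 68.2 CPM in CAL27 with NEDD8i, against 56.8 and 63.0 CPM with DMSO, and 67.4 and 69.8 CPM in A431 with NEDD8i, against 52.2 and 46.8 CPM with DMSO. Its CAL27 change was small (log2 fold 0.19, SE 0.07) and was lost under column totals and without CAL27 DMSO replicate 1, CAL27 NEDD8i replicate 1 or CAL27 NEDD8i replicate 2 (edgeR adjusted p up to 0.271). The A431 calls of ZNF431, ZNF460 and ZNF530 were lost without A431 NEDD8i replicate 2, with edgeR adjusted p of 0.148, 0.203 and 0.0896.

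Among members lower in both lines, 3 lay in 1 cluster and matched no KRAB pattern. ZNF580, reported in endothelial migration, has 3 fingers and spans chr19:55641002-55643470 on the plus strand (ENSG00000213015.9). It had 1.08 and 1.44 CPM in CAL27 with NEDD8i, against 4.04 and 6.18 CPM with DMSO (log2 fold -2.02, SE 0.25, edgeR adjusted p = 2.64e-06). In A431 it had 2.08 and 2.33 CPM with NEDD8i, against 9.93 and 9.47 CPM with DMSO (-2.13, SE 0.24, edgeR adjusted p = 1.17e-06). The NEDD8i libraries lay below the DMSO libraries in each line.

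ZNF524, which binds telomeric repeats, had 1.86 and 1.77 CPM in CAL27 with NEDD8i, against 5.62 and 6.28 CPM with DMSO (-1.71, SE 0.20, edgeR adjusted p = 9.45e-07). In A431 it had 5.80 and 5.37 CPM with NEDD8i, against 11.7 and 9.41 CPM with DMSO (-0.92, SE 0.18, edgeR adjusted p = 0.000431). ZNF579 had 1.52 and 2.64 CPM in CAL27 with NEDD8i, against 9.43 and 8.48 CPM with DMSO (-2.09, SE 0.21, edgeR adjusted p = 1.75e-07). In A431 it had 9.89 and 10.1 CPM with NEDD8i, against 12.9 and 15.3 CPM with DMSO (-0.50, SE 0.19, edgeR adjusted p = 0.0382). ZNF524 and ZNF579 fell further in CAL27, by differences of -0.80 (SE 0.26) and -1.60 (SE 0.28), both called. The A431 call of ZNF579 was lost with DESeq2 and without A431 DMSO replicate 2, A431 NEDD8i replicate 1, A431 NEDD8i replicate 2 or CAL27 DMSO replicate 1 (edgeR adjusted p up to 0.212).

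The other 5 members lower in both lines all matched the wider KRAB pattern. ZNF627 had 3.01 and 2.77 CPM in CAL27 with NEDD8i, against 6.86 and 6.09 CPM with DMSO, and 3.41 and 3.64 CPM in A431 with NEDD8i, against 7.42 and 6.29 CPM with DMSO. ZNF440, of the same cluster, had 6.23 and 7.13 CPM in CAL27 with NEDD8i, against 14.9 and 15.5 CPM with DMSO, and 5.58 and 4.81 CPM in A431 with NEDD8i, against 7.89 and 9.99 CPM with DMSO. The groups of both members were apart in each line. ZNF181 changed by -1.57 in CAL27 and -1.12 in A431, ZNF792 by -1.12 and -0.82, and ZNF616 by -0.51 and -0.57. Calls near the threshold were lost with single libraries left out. The A431 call of ZNF181 was lost without A431 DMSO replicate 2 or A431 NEDD8i replicate 1 (edgeR adjusted p up to 0.295), and the A431 call of ZNF792 without any of the 4 A431 libraries or either CAL27 DMSO library (up to 0.156), and also with the replicate block, DESeq2's test, no low count filter or its own groups alone. The CAL27 call of ZNF616 was lost without either CAL27 DMSO library, CAL27 NEDD8i replicate 1 or A431 NEDD8i replicate 1 (up to 0.368), and also with the replicate block, DESeq2's test or size factors, no low count filter or its own groups alone, and its A431 call without A431 DMSO replicate 1 or either A431 NEDD8i library (up to 0.15).

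**Figure D5:**
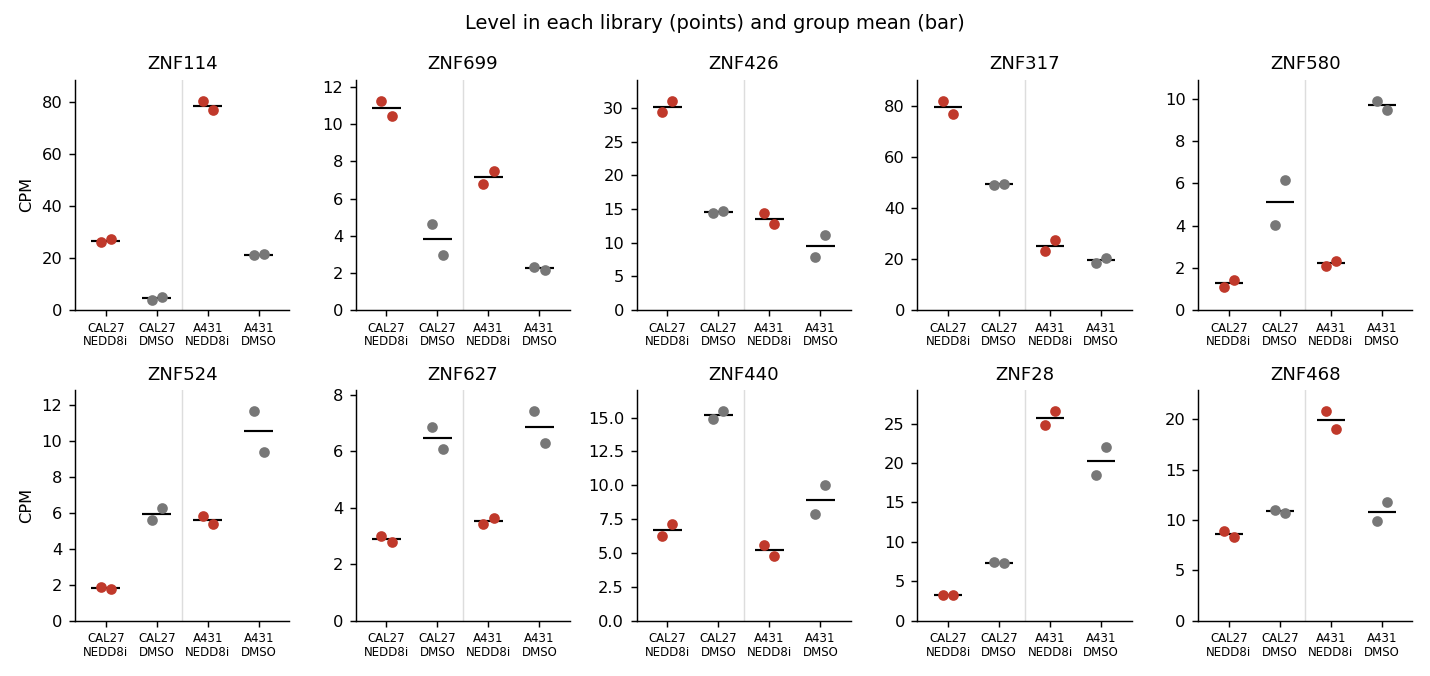
CPM (vertical axes, each starting at 0) of 10 members in each library (points) with the group mean (bar), NEDD8i in red and DMSO in grey. ZNF114, ZNF699, ZNF426 and ZNF317 sit higher with NEDD8i in both lines, ZNF580, ZNF524, ZNF627 and ZNF440 sit lower, and ZNF28 and ZNF468 differ between the lines.

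The response itself differed between the lines for 28 members. The difference of responses, CAL27 minus A431, was called higher for 14 members and lower for 14 (8.54% each), against 14.2% and 19.8% of all tested genes (34% in either direction). With DESeq2 size factors the split was 19 and 11, and the lower members numbered 9 without A431 NEDD8i replicate 2 and 8 without CAL27 DMSO replicate 2. ZNF28 and ZNF468, KRAB genes whose spans overlap, were called in opposite directions. ZNF28 had 3.31 and 3.21 CPM in CAL27 with NEDD8i, against 7.40 and 7.36 CPM with DMSO (-1.18, SE 0.14), and 24.9 and 26.6 CPM in A431 with NEDD8i, against 18.6 and 22.0 CPM with DMSO (0.34, SE 0.12). The difference was -1.52 (SE 0.18, edgeR adjusted p = 4.52e-06). ZNF468 had 8.89 and 8.34 CPM in CAL27 with NEDD8i, against 11.03 and 10.67 CPM with DMSO, and 20.8 and 19.1 CPM in A431 with NEDD8i, against 9.93 and 11.7 CPM with DMSO, a difference of -1.21 (SE 0.18, edgeR adjusted p = 5.46e-05). The fall of ZNF468 in CAL27 (-0.33, SE 0.13) was lost under 11 of the alternatives, among them each CAL27 library and each A431 NEDD8i library left out, with adjusted p up to 0.196. The rise of ZNF28 in A431 was lost under column totals and without A431 DMSO replicate 1 or either A431 NEDD8i library (edgeR adjusted p up to 0.241).

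Calls were also counted by cluster, with no test between clusters. The clusters from 51.57 and from 43.53 Mb are given because their calls ran in opposite directions in the lines, as seen in these data. The cluster from 57.19 to 58.48 Mb, with 38 tested members, had 8 higher and 3 lower in CAL27, and 3 higher and 2 lower in A431. In the cluster from 51.57 to 53.58 Mb, which holds ZNF28 and ZNF468, 0 members were higher and 5 lower in CAL27 of 20 with counts there, and 7 were higher and 1 lower in A431 of 29. Over all tested genes 23.2% were higher and 26.4% lower in CAL27, and 22.5% and 21.1% in A431. The 5 lower in CAL27 and the 7 higher in A431 were thus near the shares of all tested genes. In that cluster the difference of responses was called higher for 0 and lower for 3 of the 20 members with counts in both lines. ZNF480 of that cluster had 6.51 and 5.35 CPM in CAL27 with NEDD8i, against 14.4 and 13.7 CPM with DMSO (-1.25, SE 0.16, edgeR adjusted p = 2.67e-06), and 7.27 and 8.43 CPM in A431 with NEDD8i, against 9.004 and 8.11 CPM with DMSO (-0.12, SE 0.16). The A431 rises in that cluster took in ZNF649 and ZNF160, which had 0 counts in CAL27 and so no CAL27 response to compare. Over all tested genes the difference of responses was called higher for 14.2% and lower for 19.8%. In the cluster from 43.53 to 44.5 Mb, 4 of 21 tested members were higher and 0 lower in CAL27. In A431, 0 were higher and 5 lower, and 5 differences were called, all higher. ZNF225 of that cluster had 3.38 and 2.34 CPM in CAL27 with NEDD8i, against 2.71 and 3.01 CPM with DMSO, and 1.38 and 1.49 CPM in A431 with NEDD8i, against 5.95 and 5.74 CPM with DMSO (-2.02, SE 0.26, edgeR adjusted p = 5.7e-06). Its difference was 2.02 (SE 0.36, edgeR adjusted p = 0.000269). ZNF283 had 9.85 and 10.9 CPM in CAL27 with NEDD8i, against 4.45 and 5.12 CPM with DMSO (1.11, SE 0.17, edgeR adjusted p = 3.52e-05), and 5.21 and 4.63 CPM in A431 with NEDD8i, against 4.05 and 4.04 CPM with DMSO.

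The other members named for large changes are given by the line in which they were called, which does not show that the lines differ. The difference was called for ZNF823, ZNF507, ZNF428, ZNF555 and ZNF556, and not for ZNF554, ZNF497, ZNF575, ZNF546 or ZNF525. In CAL27, ZNF823 had 10.6 and 9.52 CPM with NEDD8i, against 4.89 and 4.75 CPM with DMSO (1.06, SE 0.22, edgeR adjusted p = 0.000598). ZNF507, with 9 fingers and no KRAB match, had 26.7 and 24.7 CPM with NEDD8i, against 35.3 and 38.1 CPM with DMSO (-0.51, SE 0.09, edgeR adjusted p = 8.51e-05), and its difference from A431 was -0.73 (SE 0.12). ZNF554 had 0.744 and 0.735 CPM in CAL27 with NEDD8i, against 1.95 and 1.74 CPM with DMSO, and ZNF497 had 0 and 0.117 CPM, against 0.389 and 0.333 CPM. ZNF497 shares 33.9% of its exonic bases with other genes. The ZNF497 call was lost with either CAL27 DMSO library or CAL27 NEDD8i replicate 1 left out (edgeR adjusted p up to 0.19), and the ZNF554 call with CAL27 DMSO replicate 1 or either CAL27 NEDD8i library left out (up to 0.0852).

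In A431, ZNF428 had 2.47 and 3.55 CPM with NEDD8i, against 6.78 and 9.45 CPM with DMSO (-1.42, SE 0.24, edgeR adjusted p = 0.000117), with 17.7% of its exonic bases shared. ZNF575 had 0.569 and 0.510 CPM with NEDD8i, against 1.32 and 1.92 CPM with DMSO, and ZNF546 had 0.175 and 0.182 CPM, against 0.904 and 0.931 CPM. ZNF556 had 0 counts in A431 with NEDD8i, against 20 counts over the 2 DMSO libraries, so it was at least 6.15-fold lower (3.08-fold with 6 counts). ZNF555 had 0.525 and 0.583 CPM in A431 with NEDD8i, against 0.226 and 0.194 CPM with DMSO, and ZNF525 had 3.68 and 2.44 CPM, against 1.15 and 1.32 CPM. The groups of these members were apart, but with 1 A431 library left out the calls of ZNF575 (edgeR adjusted p up to 0.184, without DMSO replicate 2 or either NEDD8i library), ZNF546 (up to 0.0946, any of the 4), ZNF555 (up to 0.0635, DMSO replicate 2 or NEDD8i replicate 2) and ZNF525 (up to 0.303, any of the 4) were lost.

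Some members have a known role of their own in chromatin or RNA. ZNF274 marks the ends of ZNF genes for TRIM28 and SETDB1, and ZNF473 acts in the processing of histone transcripts. Both were chosen for these roles after their values were seen. ZNF274 rose by 0.63 in CAL27, with a difference between the lines of 0.75, and ZNF473 rose by 0.91, with a difference of 0.76, while neither was called in A431. ZNF146 had 113.1 and 117.2 CPM in CAL27 with NEDD8i, against 98.5 and 99.1 CPM with DMSO (0.22, SE 0.06), and 42.6 and 41.6 CPM in A431 with NEDD8i, against 43.7 and 49.8 CPM with DMSO. The CAL27 call of ZNF146 was lost under column totals (edgeR adjusted p = 0.0862). ZNF574 had 36.6 and 33.8 CPM in CAL27 with NEDD8i, against 26.8 and 28.1 CPM with DMSO, and 35.1 and 36.0 CPM in A431 with NEDD8i, against 34.1 and 33.4 CPM with DMSO.

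The corepressors that KRAB members use were counted from a list. Of 20 listed cofactor and heterochromatin genes, all tested, 5 were higher and 11 lower in CAL27, and 3 higher and 8 lower in A431, with median log2 folds of -0.21 and -0.11. Of all tested genes 23.2% were higher and 26.4% lower in CAL27, and 22.5% and 21.1% in A431. CBX5, which encodes heterochromatin protein 1 alpha, had 24.2 and 20.7 CPM in CAL27 with NEDD8i, against 48.9 and 46.9 CPM with DMSO, and 187.2 and 186.9 CPM in A431 with NEDD8i, against 374.1 and 389.1 CPM with DMSO. ATF7IP, the partner of SETDB1, changed by -1.04 in CAL27 and -1.06 in A431 on the log2 scale, and CHD3, a remodeller that binds TRIM28, by -1.44 and -1.08. TRIM28 itself had 583.8 and 645.3 CPM in CAL27 with NEDD8i, against 696.9 and 699.4 CPM with DMSO (-0.18, SE 0.05), and 699.8 and 657.0 CPM in A431 with NEDD8i, against 901.5 and 837.3 CPM with DMSO (-0.36, SE 0.05). SETDB1 changed by -0.32 in CAL27 and -0.29 in A431, and ZNF638, which brings the HUSH repressor to DNA, by -0.64 and -0.50. HDAC2 rose by 0.38 in CAL27 and 0.41 in A431, DAXX by 0.48 and 0.21, and MORC2 by 0.19 and 0.39. Called in CAL27 and not in A431 were CBX1 and UHRF1, higher by 0.52 and 0.14, and CBX3, DNMT1, TASOR and ATRX, which changed by -0.37, -0.21, -0.33 and -0.54. The difference between the lines was not called for UHRF1 (edgeR adjusted p = 0.3015) or DNMT1 (0.3418), and was called for the other 4. CHD4 changed by -0.88 in CAL27 and -0.32 in A431, and HDAC1 by -0.17 in A431, where alone it was called. With 1 library left out, the CAL27 calls of TRIM28 (edgeR adjusted p up to 0.0564, without DMSO replicate 2 or NEDD8i replicate 1), DNMT1 (0.169, without DMSO replicate 2), MORC2 (up to 0.195, without DMSO replicate 1 or NEDD8i replicate 1) and UHRF1 (up to 0.249, without DMSO replicate 1, either NEDD8i library or A431 NEDD8i replicate 2) were lost. So were the A431 calls of SETDB1 (0.08, without NEDD8i replicate 1), HDAC1 (0.0698, without NEDD8i replicate 2), DAXX (up to 0.151, without DMSO replicate 2 or NEDD8i replicate 1) and CHD4 (up to 0.215, without either DMSO library or NEDD8i replicate 1). Column totals also ended the CAL27 calls of MORC2 (0.205) and UHRF1 (0.445) and the A431 call of DAXX (0.174).

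Sequence features were set beside the calls. The median number of fingers was 11 in members higher and 11 in members lower in CAL27, and 12.5 in those not called. In A431 it was 12 in members higher, 11 in members lower and 12 in those not called. The wider KRAB pattern matched 81.5% of members higher, 68.4% of those lower and 82.2% of those not called in CAL27, and 83.3%, 68.4% and 81.8% in A431. The first, narrower pattern matched 13 of 27, 8 of 19 and 59 of 118 in CAL27, and 15 of 24, 4 of 19 and 61 of 121 in A431. The shares thus depend on the pattern. The ETS letters were in 12 of 25 promoters of members higher in CAL27, 5 of 14 of those lower and 45 of 107 of those not called, and in 11 of 21, 6 of 18 and 45 of 107 in A431. The YY1 letters were in 7 of 25 promoters of members higher in CAL27, 3 of 14 of those lower and 19 of 107 of those not called. In A431 they were in 8 of 21, 0 of 18 and 21 of 107. Among these 8, ZNF317, ZNF699, ZNF121 and ZNF562 lie in 1 cluster. Among members that could not be tested the median promoter had 16 CpG, against 22 in tested members not called in CAL27. These shares carry no test.

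Members that were not tested were unevenly spread. The cluster from 19.67 to 24.13 Mb holds 37 members, of which 8 were tested, and the cluster from 11.48 to 12.63 Mb holds 25, of which 14 were tested. The cluster from 36.18 to 37.82 Mb also holds 25, of which 13 were tested. Those near the end of the long arm, from 57.19 to 58.48 Mb, were tested in 38 of 41 cases. Among all members, 127 shared no exonic base with another gene and 48 shared over 10%. Per the file headers, reads that matched several places were not counted and strand was not used, so a member and an antisense or overlapping gene cannot be told apart, and a member with a close copy can be undercounted.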

How the data were processed

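The deposited values are whole-number counts per gene, 1 table for each of 8 QuantSeq FWD libraries. Per the submitters' processing notes, STAR, featureCounts and DESeq2 were used with GRCh38. Per the file headers, featureCounts 2.0.8 counted exons of the GENCODE basic 39 annotation without strand, each mate of a pair on its own, and left out reads with several matches. Even values made up 70.2% to 76.7% of counts between 1 and 40. The labels and headers do not say what else was filtered.

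Symbols came from the given tables, and gene types and coding sequences from GENCODE 29. The member ZNF781 is a transcribed pseudogene in RefSeq. The members and lists were chosen with earlier results of these data known. Counts were fitted with edgeR 4.0.16 in R 4.3.3 (TMM, filterByExpr, glmQLFit with 1 mean for each of 4 groups, glmQLFTest), after the steps were tested on simulated data. Benjamini-Hochberg adjustment ran over all 18738 genes, with 4 residual degrees of freedom and a common coefficient of biological variation at 0.0852. SE is the log2 fold divided by the root of F. Totals of 49037868 to 62509817 counts put 3 counts in a library at 0.048 to 0.0612 CPM. Replicates differed beyond sampling noise (chi-square over degrees of freedom 5.31 to 10.4).

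Named genes were the 8 largest changes in each direction shared by both lines, the 6 largest rises and falls per line, the 6 lowest adjusted p for the difference of responses and any opposite pair, the 6 highest and 6 lowest in CAL27 against A431, the 5 highest levels, up to 6 members with a group at 0, and the called cofactors. Alternatives were DESeq2 1.42.0 and its size factors, column totals, other low count filters, each comparison fitted on its own groups, the replicate number as a block, halved counts, members without shared exons, and each library left out. The wider KRAB pattern was added after the first was seen to miss members. Finger, KRAB and promoter matches are string searches of coding sequences and RefSeq windows.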

Additional observations from a re-analysis of the deposited data

Results flagged for a closer look

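For 16 named members the response to NEDD8i differed between the lines by the test of the difference itself, given here as the CAL27 response minus the A431 response on the log2 scale (edgeR's quasi-likelihood test, 2 libraries a group). The difference was 2.02 for ZNF225, 1.18 for ZNF823, 0.96 for ZNF428, 0.83 for ZNF283, 0.68 for ZNF114, 0.55 for ZNF426 and 0.37 for ZNF146. It was -2.09 for ZNF555, -1.60 for ZNF579, -1.52 for ZNF28, -1.21 for ZNF468, -1.12 for ZNF480, -0.80 for ZNF524, -0.73 for ZNF507 and -0.28 for ZNF787. ZNF556 had a fitted difference of 6.06, which depends on the prior count because the A431 libraries with NEDD8i held 0 counts, and is no bound. ZNF274 and ZNF473, named afterwards, had differences of 0.75 and 0.76.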

How the results depend on the processing

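Of 97 named results, 68 kept their call under every alternative run on them. Over 1540 values, 1440 kept direction and call, 100 lost the call and 0 reversed. With column totals the median log2 fold of members was -0.045 for the A431 response, -0.0527 for the CAL27 response and 0.0555 for CAL27 against A431 under DMSO, and with a limit of 1 CPM the last was 0.0407. That scaling moved the all-gene medians the same way in these comparisons. With 1 library left out, the CAL27 response gave 21 to 28 members higher, 12 to 22 lower and a median of -0.127 to 0.0866. The A431 response gave 15 to 27 higher, 10 to 18 lower and a median of 0.0297 to 0.0967. The difference of responses gave 11 to 14 higher, 8 to 14 lower and a median of 0.0133 to 0.1182. CAL27 against A431 gave 43 to 52 higher, 40 to 49 lower and a median of -0.0769 to 0.0271. Same-numbered libraries did not deviate together over tested genes (r from -0.0303 to 0.0194). With 1 deviation a group, this cannot show whether they were handled together, and the labels give them only a shared number. With the replicate block the CAL27 response had 27 higher and 18 lower (median 0.0231), the A431 response 22 and 15 (0.0689), the difference 14 and 11 (0.0934) and CAL27 against A431 51 and 47 (-0.0178), and 4 of 97 named results lost their call. Halving the counts ended 0 of the 96 named calls it could be run on. A floor of 6 counts for a group at 0, added after seeing the data, gives bounds 0.5 times those of 3 counts, 200-fold for ZNF260.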
